A study of Mus musculus and blank sample with 191 samples.

Results

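Epithelium and stroma of the mutant mouse uterus were compared within animals by spatial whole-transcriptome profiling (GeoMx). The samples were the 52 regions of the first collection plate titled PV/N, of which 31 were labelled epithelium and 21 stroma, among 95 tissue regions on that plate and 189 in the series. They came from 6 Thra1PV/+ mice (here PV), with 1 mutant (PV) and 1 normal allele of the gene for thyroid hormone receptor alpha 1, aged 2.4, 2.4, 4.0, 4.2, 5.9 and 6.3. The same contrast was set beside it in 41 wild-type regions titled N/N (WT), from 7 mice aged 4.0 to 9.0. The labels give the ages without a unit, and they were read as months. All regions were uterus sections in fixed, paraffin-embedded tissue microarray cores, and the labels give no treatment and no estrous stage per mouse, while the study's methods describe females matched at metestrus. The mutation is carried in the germline, so epithelium and stroma of a PV mouse both hold the mutant receptor, and a difference between them cannot be assigned to the receptor of one compartment. Regions were drawn by a pathologist with the help of cytokeratin and smooth muscle actin stains, so that keratin and actin differences between compartments were built into the sampling. Surface epithelium and glands are not separated in the labels and were pooled.

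The uterine lining is a simple columnar epithelium that folds into glands and rests on a fibroblast-rich stroma. The 2 compartments signal to each other: estrogen and progesterone act through receptors in both, epithelial hedgehog and Wnt ligands reach the stroma, and stromal Wnt, FGF and BMP ligands reach the epithelium. Thyroid hormone receptor alpha 1 is a nuclear receptor that represses its targets without hormone and activates them with it, and the PV form cannot bind the hormone and interferes with the normal receptor.

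All counts of a mouse and compartment were added up, and the mouse served as the replicate. These sums ran from 61691 to 13492532 counts in PV and from 373231 to 8398111 in WT, and single PV regions held 61691 to 1494617 with a median of 599236. One PV mouse, PV2, had 1 region per compartment, and 95.9% of its epithelial and 92.8% of its stromal gene sums were of 10 counts or fewer. A PV2 value of 4.01 log2 CPM (log2 counts scaled to the total of the sum) in epithelium or 3.46 in stroma is 1 count, which also stands for none in the deposited table. PV1, in contrast, gave 15 epithelial and 10 stromal regions. Values are log2 CPM per mouse, fold changes are epithelium over stroma on the log2 scale with their SE, and a gene was called at an adjusted p under 0.05 by edgeR's quasi-likelihood test over 14881 genes. Each target was read by 1 probe in nearly all cases, so levels were compared between compartments and not between genes. In bulk regions, fewer cells of a type and less RNA per cell cannot be told apart.

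The compartment labels were checked against 4 defining genes. Krt8 (chr15:101996711-102004342, GRCm38.p6), a keratin of simple epithelia, was at 9.26, 10.25 and 11.10 log2 CPM in PV epithelium (lowest, median and highest of 6 mice) and at 4.41, 6.22 and 6.71 in PV stroma. Epcam (chr17:87635979-87651127), an epithelial adhesion molecule, was at 7.12, 9.07 and 9.27 in PV epithelium and at 4.21, 4.76 and 5.59 in PV stroma. Neither gene overlapped between compartments, and the difference was 4.30 ± 0.26 for Krt8 (19.7-fold, adjusted p = 1.66e-09) and 4.06 ± 0.28 for Epcam (16.7-fold, adjusted p = 4.38e-09). Dcn (chr10:97479500-97518163), which encodes the collagen-binding proteoglycan decorin of fibroblasts, was at 5.14, 6.56 and 6.70 log2 CPM in PV epithelium and at 8.47, 9.93 and 11.36 in PV stroma. Col1a1 (chr11:94936224-94953042), the main chain of type I collagen, was at 5.55, 8.16 and 9.48 in PV epithelium and at 9.37, 11.55 and 13.07 in PV stroma. Dcn was lower in epithelium by -3.81 ± 0.26 (adjusted p = 4.08e-09) without overlap, and Col1a1 by -3.42 ± 0.20 (adjusted p = 1.44e-09) with the highest epithelial value above the lowest stromal one. In WT the 4 differences were 4.15, 3.78, -2.99 and -2.57. Over single first-plate PV regions, the mean log2 level of simple epithelial genes minus that of fibroblast genes lay between 0.391 and 3.30 in epithelium and between -5.23 and -2.41 in stroma. On the second plate the same quantity ran from -5.43 to 2.03 in PV regions labelled epithelium and from -5.23 to 2.61 in those labelled stroma. The WT ranges there also overlapped, at -4.96 to 1.89 and -4.68 to 2.43. The median of regions labelled stroma was 0.62 in PV and -3.60 in WT. That plate was not used here except as an alternative.

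**Figure D1:**
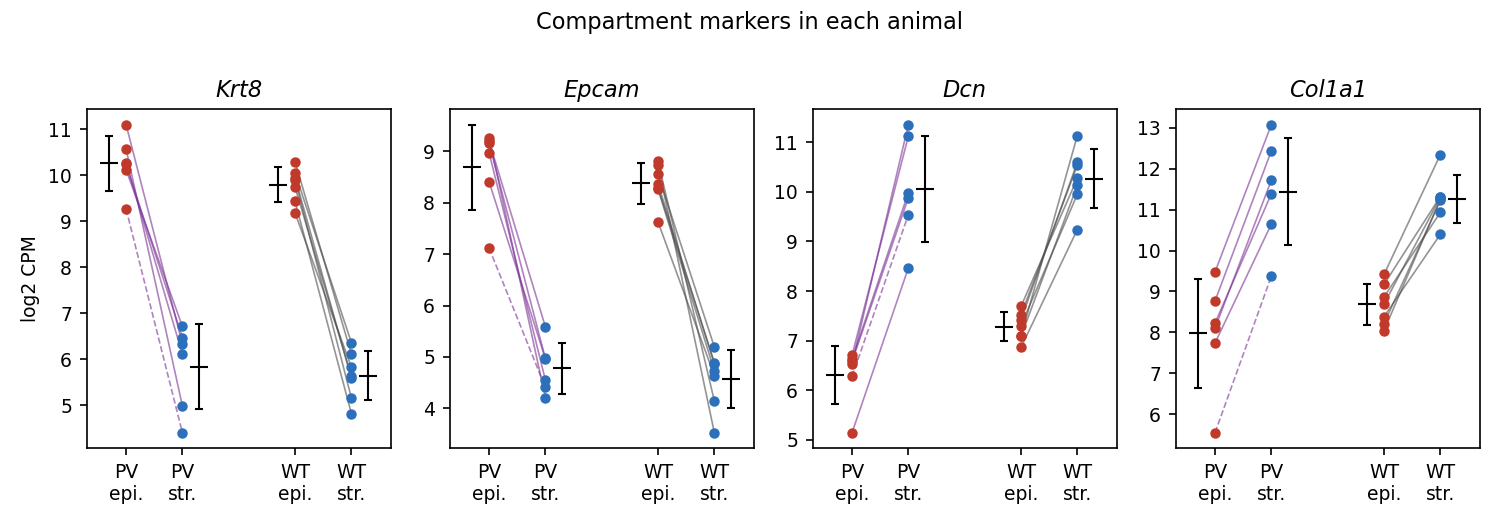
Log2 CPM of Krt8, Epcam, Dcn and Col1a1 (y axes, each with its own range) in epithelium (red) and stroma (blue) of 6 PV mice (purple lines) and 7 WT mice (grey lines), 1 line per mouse, dashed for PV2, with the group mean and SD in black. In all 13 mice Krt8 and Epcam lay higher in epithelium and Dcn and Col1a1 higher in stroma, with PV epithelial Krt8 between 9.26 and 11.10 and PV stromal Krt8 between 4.41 and 6.71.

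The 3 promoters of the epithelial genes are shown because they share a short motif and their genes moved together. Each is the 250 bases before the RefSeq gene start in GRCm38.p6, 5′ to 3′ on the gene's strand, and capitals mark CAGGTG or its reverse complement CACCTG, the E-box letters to which repressors of the Zeb and Snai families bind.
Epcam, chr17:87635729-87635978, plus strand: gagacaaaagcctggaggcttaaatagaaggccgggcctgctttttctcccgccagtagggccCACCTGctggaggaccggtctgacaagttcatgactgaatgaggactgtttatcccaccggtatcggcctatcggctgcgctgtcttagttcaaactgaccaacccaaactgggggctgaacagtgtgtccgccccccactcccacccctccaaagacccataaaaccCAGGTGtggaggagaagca
Krt8, chr15:102004343-102004592, minus strand: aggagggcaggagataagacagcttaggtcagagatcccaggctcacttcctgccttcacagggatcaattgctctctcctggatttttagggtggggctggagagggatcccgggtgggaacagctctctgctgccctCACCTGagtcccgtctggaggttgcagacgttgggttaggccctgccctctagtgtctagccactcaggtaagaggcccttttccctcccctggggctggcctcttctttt
Elf3, chr1:135258473-135258722, minus strand: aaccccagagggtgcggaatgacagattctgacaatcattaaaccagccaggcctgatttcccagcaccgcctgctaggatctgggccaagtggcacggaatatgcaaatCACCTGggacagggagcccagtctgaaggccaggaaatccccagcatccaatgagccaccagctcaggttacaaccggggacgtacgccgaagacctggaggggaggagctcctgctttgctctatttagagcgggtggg
On either strand, CAGGTG was found in 9 of the 13 simple epithelial genes with a promoter in the table, in 0 of 9 fibroblast genes and in 19.4% of all 27025 promoters of the same length. AACCGG, letters bound by grainyhead-like factors, was found in 4 of the 13, in 0 of 9 and in 6.4%, and CAGGAAG, an ETS-type motif, in 2 of the 13, in 1 of 9 and in 12.1%. The estrogen response palindrome and the grainyhead palindrome AACCGGTT, which contains AACCGG, were in neither group. The motifs were chosen with the results known, and a match is only a description of these letters.

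In PV uterus, 7349 of 14881 genes differed between compartments (49.4%). Of these 3380 (22.7%) were higher in epithelium and 3969 (26.7%) higher in stroma, and in 1948 and 2197 of them, respectively, all 6 mice moved the same way. For most genes PV2 had 10 counts or fewer per compartment, so its sign can come from the totals alone. Scaling to the upper quartile moved the median of all genes from -0.03 to -0.18 and the split to 2537 and 5024. In WT 7264 genes (48.8%) were called, 3282 in epithelium (22.1%) and 3982 in stroma (26.8%). The compartment difference was kept, that is called in both genotypes with the same sign, for 5694 genes (38.3% of those tested), which were 77.5% of the PV calls and 78.4% of the WT calls. Among the kept genes the difference was larger in PV for 3853 (67.7%): the median was 0.86 in PV and 0.80 in WT for those higher in epithelium, and -1.05 and -0.90 for those higher in stroma. Calls with a stromal excess of over 3 on the log2 scale numbered 65 in PV and 13 in WT, and those with an epithelial excess of that size 104 and 96. The median SE over all genes was 0.19 in PV and 0.16 in WT. Passing in PV therefore favoured larger PV values among the kept genes. Over all genes the median PV minus WT difference was -0.005, and no gene was called for it.

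Among genes higher in epithelium in all 6 PV mice, the largest differences were, beside Krt8, in Plet1, a surface protein of epithelial progenitors, at 4.45 ± 0.34, Ltf (lactoferrin, an estrogen-responsive iron-binding protein) at 4.39 ± 0.70, Lcn2 (lipocalin 2) at 4.38 ± 0.72, Clca1, a secreted protein of mucous cells, at 4.30 ± 0.65, complement C3 at 4.25 ± 0.69, Krt19 at 4.25 ± 0.29 and Elf3, an epithelial ETS factor, at 4.22 ± 0.35. Ltf was at 5.55, 10.80 and 11.46 log2 CPM in PV epithelium and at 4.21, 6.14 and 7.68 in PV stroma, with PV2 at the lowest epithelial value, and the compartments overlapped. In PV2, Ltf had 3 counts in both compartments, and Clca1 had 3 in epithelium and 2 in stroma. That mouse therefore gives no firm direction for either gene. The level of Elf3 was 8.33, 9.49 and 10.95 in PV epithelium and 4.51, 5.41 and 7.21 in PV stroma, with no overlap. All 8 were also called in WT, where they ran from 3.54 for C3 to 4.26 for Plet1. The WT mice were not uniform, as Ltf, Lcn2, Clca1 and C3 were higher in stroma in WT1. There C3 was at 4.64 log2 CPM in epithelium and 6.46 in stroma, while WT3 epithelium held 13.58.

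Among genes higher in stroma in all 6 PV mice, the largest differences were, beside Dcn, in Cd34, a sialomucin of endothelium and fibroblast progenitors, at -3.81 ± 0.28, Aebp1, a collagen-binding matrix protein, at -3.73 ± 0.24, the matrilin Matn2 at -3.66 ± 0.21, the immunoglobulin kappa constant gene Igkc at -3.58 ± 0.88, the collagen Col6a4 at -3.58 ± 0.23, the intermediate filament Vim at -3.57 ± 0.26 and the aldehyde oxidase Aox3 at -3.55 ± 0.30. Matn2 was at 4.01, 4.10 and 4.64 log2 CPM in PV epithelium and at 7.36, 7.75 and 8.56 in PV stroma, with no overlap. Of these 8 genes, Igkc was the exception in WT, at -1.11 ± 0.88 (adjusted p = 0.31), and the other 7 were called there, from -2.98 to -3.34.

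**Figure D2:**
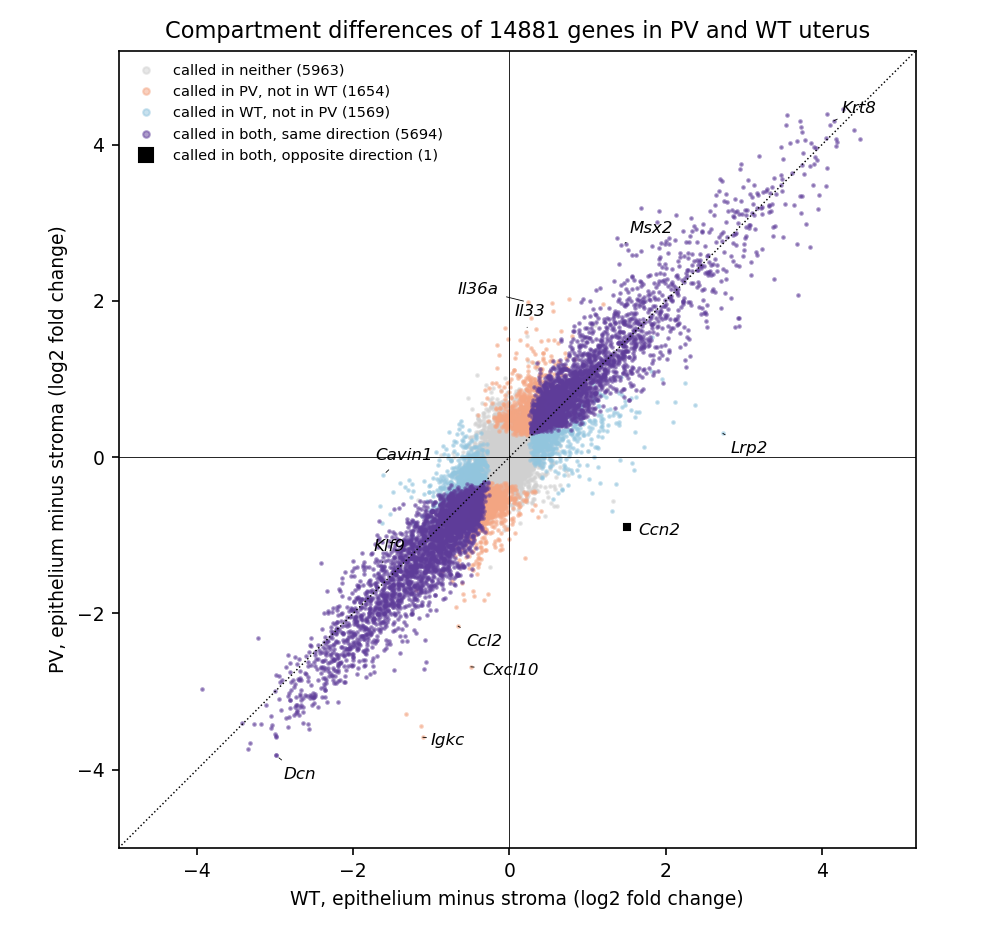
Epithelium minus stroma log2 fold change of 14881 genes in WT (x axis) and PV (y axis), coloured by the genotype in which the gene was called, with the line of equal differences dotted. Most called genes lie along that line: 5694 were called in both genotypes in the same direction, 1654 in PV and not WT, 1569 in WT and not PV, and 1 in both with opposite direction.

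Genes of simple epithelium kept their compartment in full. All 17 on the list were higher in PV epithelium and all 17 in WT epithelium, where 22.7% and 22.1% of all genes were. The median was 3.57 in PV and 3.39 in WT, against -0.03 and -0.06 over all genes. For 15 of the 17 the 2 PV compartments did not overlap, where 8.85% of all genes had none in PV and 14.9% in WT. Besides the keratins they include Jup (plakoglobin), a junction protein, at 7.04, 7.47 and 8.10 log2 CPM in PV epithelium and 3.46, 5.19 and 5.55 in PV stroma, a difference of 2.34 ± 0.21 against 1.88 ± 0.18 in WT. The epithelial secretory list stood at 9 of 10 tested genes higher in epithelium in both genotypes and 0 higher in stroma. The median was 3.61 in PV and 3.51 in WT. The membrane mucin Muc4 was at 3.56 ± 0.47 in PV and at 2.69 ± 0.44 in WT.

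Over all genes 26.7% were higher in PV stroma and 26.8% in WT stroma. Of the 16 fibroblast genes, 15 were higher in PV stroma and the same 15 in WT stroma, and Fbln1 was called in neither. Their median was -3.12 in PV and -2.56 in WT. For 6 of them the PV minus WT difference had an unadjusted p under 0.05 and was negative, where 577 of all genes did, and none passed adjustment. The count was 11 without PV3, 10 without WT3 and 3 without PV5, 2 with limma and 0 without the mouse as a block. Sparc, a collagen-binding matrix protein, was at 4.98, 5.83 and 6.84 log2 CPM in PV epithelium and at 7.68, 9.12 and 10.57 in PV stroma. Its difference was -3.48 ± 0.22 in PV and -2.56 ± 0.18 in WT, with an interval of the PV minus WT difference from -1.49 to -0.34. For Dcn that interval ran from -1.49 to -0.16 and for Col1a1 from -1.37 to -0.32. The median level of Dcn was 6.56 in PV epithelium and 7.30 in WT epithelium, while its stromal median was 9.93 in PV and 10.27 in WT. The summed level of the 16 genes ran from 702.8 to 2321 CPM in PV epithelium and from 1616 to 2930 in WT epithelium, and the part of stromal transcripts within epithelial regions in these differences was not tested.

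Regulators of epithelial and mesenchymal identity were divided between the compartments alike in both genotypes. All 10 were called in PV, 4 in epithelium and 6 in stroma, and all 10 were kept. For comparison, 49.4% of all genes were called in PV and 38.3% were kept. Esrp1, a splicing factor of epithelial cells, was at 6.28, 7.67 and 8.27 log2 CPM in PV epithelium and at 3.57, 4.29 and 5.03 in PV stroma. Zeb2, a repressor of epithelial genes, was at 4.01, 4.93 and 5.32 in PV epithelium and at 7.55, 8.17 and 8.84 in PV stroma. Neither overlapped. The differences were 3.40 ± 0.24 for Esrp1, -3.20 ± 0.20 for Zeb2, -2.19 ± 0.20 for its relative Zeb1 and -2.21 ± 0.18 for the mesenchymal factor Twist1. In WT they were 3.28, -2.75, -1.84 and -1.66.

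The homeobox genes that pattern the female reproductive tract were also retained, 11 of 13 in both genotypes: 4 higher in epithelium and 7 in stroma. The kept share over all genes was 38.3%. Hoxa10, needed for stromal response to implantation, was at -3.06 ± 0.22 in PV and -2.84 ± 0.17 in WT, and Hoxd9 at -2.45 ± 0.23 and -2.05 ± 0.19. Msx1, a homeobox factor of the receptive epithelium, was at 7.31, 8.17 and 9.18 log2 CPM in PV epithelium and at 3.46, 4.38 and 5.03 in PV stroma, and its difference was nearly the same in PV (3.73 ± 0.25) and WT (3.74 ± 0.22). Its relative Msx2 (chr13:53466881-53472780) was at 5.59, 6.50 and 7.27 in PV epithelium and at 3.27, 3.62 and 4.41 in PV stroma. In WT epithelium Msx2 was at 4.60, 4.80 and 6.17 and in WT stroma at 3.48, 3.74 and 4.16. The Msx2 difference was thus 2.71 ± 0.26 in PV (6.56-fold) and 1.43 ± 0.22 in WT (2.70-fold), and the interval of the difference between them ran from 0.57 to 2.00 with an adjusted p of 0.579.

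Stratified squamous genes were sparsely measured: 8 of 22 were among the genes tested, and classical basal markers such as Krt5, Krt14 and Trp63 were not. In PV epithelium 4 of the 8 were higher and 1 was lower, against 2 and 1 in WT, with medians of 0.65 (0.41 without PV3) and -0.10. Leaving out PV1 moved the first count to 5 and the second to 0. With each genotype fitted alone, 3 genes were higher in epithelium in PV and 3 in WT, and with limma 2 and 1. Shares over all genes were 22.7% higher in PV epithelium and 26.7% in PV stroma, beside 22.1% and 26.8% in WT. Perp, a desmosome-associated protein, was the highest at 2.61 ± 0.27 and was kept (2.18 ± 0.24 in WT). Sfn (stratifin, the 14-3-3 sigma of squamous cells) was at 4.01, 5.86 and 6.64 log2 CPM in PV epithelium and at 2.90, 4.36 and 4.68 in PV stroma, a difference of 1.98 ± 0.30 in PV and 0.92 ± 0.27 in WT. Called in PV and not in WT were Sprr1a, a cornified-envelope precursor, at 1.33 ± 0.29 against 0.43 ± 0.25, and Krt15, a basal keratin, at 0.90 ± 0.32 against -0.06 ± 0.29. Krt15 was at 3.36, 4.25 and 7.63 in PV epithelium and at 2.90, 3.71 and 5.03 in PV stroma, with PV3 highest in both. Without PV3 the Krt15 difference was 0.35 (adjusted p = 0.233) and its PV minus WT difference went from 0.97 to 0.42, and without PV5 its call was lost (adjusted p = 0.0522). Without PV1 the Sprr1a difference was 0.80 (adjusted p = 0.0171) and its PV minus WT difference went from 0.91 to 0.37. Sbsn (suprabasin), a suprabasal protein of squamous epithelium, was slightly higher in stroma in both genotypes (-0.60 ± 0.18 in PV), and without PV1 its call was lost (adjusted p = 0.059).

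Klk11, Il36a, Chil1 and Fndc1, which are outside that list, were called higher in epithelium in PV and not in WT. Klk11, a serine protease, was at 3.39, 4.67 and 6.56 log2 CPM in PV epithelium and at 3.08, 3.90 and 4.41 in PV stroma, with a difference of 1.43 ± 0.25 in PV (adjusted p = 1.12e-04) and -0.15 ± 0.23 in WT. Il36a, an epithelial cytokine of the IL-1 family, was at 1.98 ± 0.31 in PV (adjusted p = 3.93e-05) and 0.23 ± 0.27 in WT. Chil1, a secreted chitinase-like protein, was at 1.98 ± 0.40 in PV and 0.54 ± 0.34 in WT, and without PV1 its PV minus WT difference went from 1.43 to 0.94. For Fndc1, a fibronectin-domain protein, the values were 2.03 ± 0.43 and 0.77 ± 0.40, and the interval of the difference between genotypes ran from 0.02 to 2.50. Each of these 4 genes was higher in epithelium in 5 of 6 PV mice, and in all of them the PV compartments overlapped. In PV2, Il36a had 1 count and Chil1 2 counts in both compartments, and scaling to the totals places equal counts higher in epithelium. For Il36a and Chil1, PV2 is therefore among the 5 mice, although it gives no direction for either gene.

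Gland genes had the smaller median in PV. Of the 5 tested of 7 listed, 2 were higher in PV epithelium and 3 in WT epithelium, where 22.7% and 22.1% of all genes were. The medians were 0.95 and 2.05. The PV median was 0.54 without PV4 and 0.15 with limma on the Q3 values. Sox17 (chr1:4490928-4497426), a factor needed for gland formation, was at 7.82, 8.29 and 8.82 log2 CPM in PV epithelium and 5.38, 5.88 and 6.38 in PV stroma. It was kept, at 2.33 ± 0.21 in PV and 3.08 ± 0.20 in WT. Cxcl15, a chemokine of uterine glands, was at 4.01, 4.93 and 6.84 in PV epithelium and 4.07, 4.48 and 5.38 in PV stroma, and was not called (0.95 ± 0.54, adjusted p = 0.151; 0.32 without PV4). In WT epithelium it was at 4.35, 7.71 and 8.29, and the WT difference of 2.25 ± 0.45 was called (adjusted p = 4.88e-04). Spink1, a trypsin inhibitor of glands, was called in neither genotype (-0.35 ± 0.45 and 0.65 ± 0.38).

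The largest epithelial differences called in WT whose PV contrast had p above 0.05 were, with Cxcl15, in Lrp2 and Hp. Lrp2 (megalin, an endocytic receptor of absorptive epithelia) was at 2.72, 3.50 and 4.55 log2 CPM in PV epithelium and at 2.90, 3.41 and 3.66 in PV stroma, which is no called difference (0.30 ± 0.68, adjusted p = 0.745, from 0.19 without PV3 to 0.47 without PV6). In WT epithelium it reached 8.84 in WT1 with a median of 4.59, and the WT difference was 2.73 ± 0.56. Hp (haptoglobin, a haemoglobin-binding acute-phase protein) was at 4.01, 4.29 and 5.04 in PV epithelium and 3.02, 4.23 and 4.97 in PV stroma. In WT epithelium Hp was at 5.03, 6.45 and 7.67, and its difference was 2.38 ± 0.28 in WT (5.19-fold) against 0.67 ± 0.36 in PV (1.59-fold, adjusted p = 0.128), or 0.32 without PV4 (adjusted p = 0.523). The interval of PV minus WT ran from -2.68 to -0.74 for Hp and from -4.30 to -0.55 for Lrp2, and neither passed adjustment.

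Signalling was followed by role, beginning with hedgehog, in which the epithelial ligand Ihh acts on stromal receptors. No gene of the progesterone and hedgehog list was higher in PV epithelium and 7 of 14 were higher in PV stroma, against 1 and 11 in WT. All 7 were kept. Shares over all genes were 22.7% higher in PV epithelium, 26.7% in PV stroma and 38.3% kept. The ligand Ihh was at 5.55, 6.10 and 6.79 log2 CPM in PV epithelium and 4.41, 5.78 and 6.04 in PV stroma, a difference of 0.46 ± 0.26 that was not called (adjusted p = 0.157), beside 1.03 ± 0.22 in WT, and without PV4 it was 0.23 (adjusted p = 0.525). The receptor Ptch1 (0.15 ± 0.33, from 0.04 without PV5 to 0.31 without PV4) and the transducer Smo (-0.26 ± 0.13) were not called in PV, while in WT they were at -0.72 and -0.66 and both called. Smo was at 5.62, 5.99 and 6.54 in PV epithelium and at 5.68, 6.16 and 6.68 in PV stroma, with overlap. The PV minus WT interval ran from 0.05 to 0.75 for Smo. In contrast the target factor Gli1 was kept at -1.99 ± 0.34 (3.98-fold, adjusted p = 1.09e-04), without overlap in PV. Among progesterone genes, the receptor Pgr was called in neither genotype (-0.27 ± 0.24 in PV). The stromal factor Hand2, which restrains stromal FGF signals, was at 3.93, 4.22 and 5.34 in PV epithelium and at 5.86, 7.45 and 8.23 in PV stroma (-2.81 ± 0.23). The growth factor receptor Egfr was at -0.58 ± 0.20 in PV, and its call was lost without PV1 (adjusted p = 0.158), PV4 (0.11) or PV6 (0.0534).

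In the Wnt list 8 of 29 genes were higher in PV epithelium and 14 in PV stroma, as many as in WT, and 19 were kept. The epithelial share is near that of all genes (22.7%), of which 26.7% were higher in PV stroma and 38.3% kept. Of the ligands, Wnt7a (chr6:91363981-91411353), an epithelial Wnt needed for gland formation, was at 3.77, 7.30 and 8.59 log2 CPM in PV epithelium and at 3.40, 3.83 and 4.40 in PV stroma. In WT epithelium Wnt7a was at 3.56, 4.64 and 6.21. The difference was 2.80 ± 0.37 in PV (6.98-fold) and 1.37 ± 0.35 in WT (2.59-fold), with an interval between genotypes of 0.35 to 2.51, and PV6 held the lowest epithelial value. Its relative Wnt7b was at 1.12 ± 0.22 in PV and 0.53 ± 0.19 in WT. The stromal ligands Wnt5a and Wnt16 were at -1.40 ± 0.23 and -2.11 ± 0.23 in PV, and at -0.58 ± 0.20 and -1.48 ± 0.19 in WT. The secreted Wnt antagonists Sfrp4, Frzb, Dkk2 and Dkk3 were higher in stroma in both genotypes. Sfrp4 was at -2.85 ± 0.39, Frzb at -1.67 ± 0.18, Dkk2 at -1.42 ± 0.22 and Dkk3 at -2.81 ± 0.34 in PV, beside -2.91, -0.94, -0.63 and -1.84 in WT. Dkk3 was at 4.12, 4.40 and 5.22 log2 CPM in PV epithelium and at 6.31, 7.40 and 7.56 in PV stroma. The interval between genotypes ran from -1.23 to -0.23 for Frzb. For Dkk2, whose PV minus WT difference of -0.78 went to -0.41 without PV4, it ran from -1.40 to -0.17.

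Of 14 FGF genes, 1 was higher in PV epithelium and 6 in PV stroma, against 3 and 5 in WT, and 6 were kept, where 38.3% of all genes were. Over all genes 22.7% were higher in PV epithelium and 26.7% in PV stroma. The stromal ligand Fgf10, which acts on epithelium, was at 2.75, 3.52 and 4.01 log2 CPM in PV epithelium and at 4.28, 5.74 and 6.77 in PV stroma. It was without overlap, at -2.21 ± 0.28 (4.63-fold) in PV and -1.22 ± 0.24 (2.34-fold) in WT, with an interval between genotypes of -1.75 to -0.22. The second stromal ligand of this kind, Fgf7, was at -1.33 ± 0.19 in PV and -0.85 ± 0.16 in WT. The ligand Fgf1 was called in WT only, at 0.87 ± 0.33 against -0.17 ± 0.41 in PV. The receptor Fgfr2 was the 1 epithelial gene in PV, at 1.50 ± 0.54 (adjusted p = 0.0269), and its call was lost without PV1, PV2, PV4 or PV5 (adjusted p from 0.0548 to 0.121).

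In the BMP, activin and TGF-beta list 2 of 19 genes were higher in PV epithelium and 12 in PV stroma, against 0 and 11 in WT, and 9 were kept. Beside these counts stand 22.7%, 26.7% and 38.3% of all genes, for PV epithelium, PV stroma and kept. The ligand Bmp5 was at 3.53, 4.58 and 5.34 log2 CPM in PV epithelium and at 3.19, 3.47 and 4.67 in PV stroma, higher in epithelium in 5 of 6 mice. Its difference was 1.27 ± 0.26 in PV (adjusted p = 6.82e-04) and 0.07 ± 0.24 in WT, with an interval between genotypes of 0.45 to 1.95. Inhba, the activin A subunit, was at -1.40 ± 0.22 in PV and -0.40 ± 0.19 in WT, where it was not called. Of the inhibitors, follistatin (Fst), which binds activin, was called in WT (-1.29 ± 0.23) and not in PV (-0.29 ± 0.30, 0.08 without PV4). Noggin (Nog), which binds BMPs, was called in PV (-1.72 ± 0.48) and not in WT (-0.47 ± 0.38), and lost its PV call without PV4 (adjusted p = 0.0725). The co-receptor Tgfbr3 was kept, at -2.72 ± 0.27 and -2.46 ± 0.22.

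**Figure D3:**
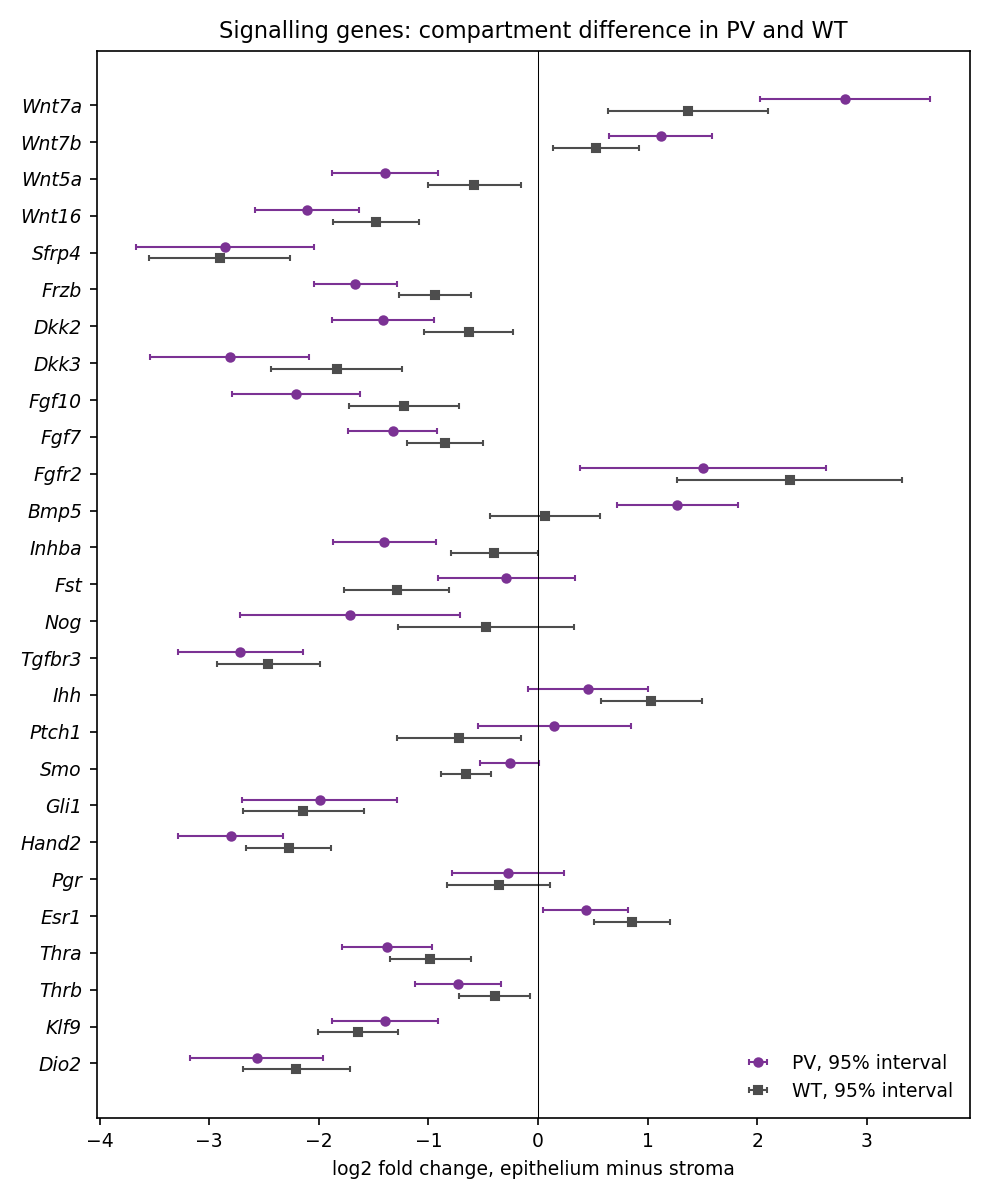
Epithelium minus stroma log2 fold change (x axis) with its 95% interval for signalling and hormone genes in PV (circles) and WT (squares). Wnt7a, Bmp5 and Inhba lie farther from 0 in PV than in WT, Smo and Fst lie nearer to 0, and Gli1, Sfrp4 and Tgfbr3 nearly coincide.

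Of steroid receptors and their partners, 4 kept their compartment difference. In PV 1 of 11 was higher in epithelium and 4 in stroma, against 3 and 3 in WT. In PV the epithelial share lies below that of all genes (22.7%) and the stromal share above it (26.7%). The kept share is near that of all genes (38.3%). The estrogen receptor Esr1 was at 7.77, 8.57 and 9.49 log2 CPM in PV epithelium and at 6.85, 8.31 and 9.29 in PV stroma. Its difference of 0.43 ± 0.18 was not called in PV (adjusted p = 0.0582), beside 0.85 ± 0.17 in WT, and it was called without PV2 (0.0395), PV4 (0.0293) or WT2 (0.0367). Fkbp4, the chaperone of the progesterone receptor, was the epithelial gene, at 1.98 ± 0.15 in PV and 1.71 ± 0.13 in WT. The glucocorticoid receptor Nr3c1 was at -0.80 ± 0.15 in PV and -0.41 ± 0.13 in WT.

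Of 14 thyroid hormone genes tested, 2 were higher in PV epithelium and 6 in PV stroma, against 2 and 7 in WT, and all 8 called in PV were kept. For all genes the shares were 22.7% in PV epithelium, 26.7% in PV stroma and 38.3% kept. Thra (chr11:98740776-98769006), for which mutant and normal transcripts were not told apart here, was at 5.31, 5.76 and 7.53 log2 CPM in PV epithelium and at 6.45, 7.38 and 8.44 in PV stroma. In WT epithelium it was at 5.19, 5.55 and 5.80 and in WT stroma at 5.72, 6.45 and 6.89. The difference was -1.38 ± 0.20 in PV (2.59-fold, adjusted p = 1.84e-05) and -0.98 ± 0.17 in WT, and the interval between genotypes of -0.94 to 0.15 includes 0. Thrb, the second receptor gene, was at -0.73 ± 0.19 in PV and -0.39 ± 0.15 in WT. Klf9 (chr19:23141226-23168129), a Krüppel-like factor induced by thyroid hormone, was at 3.88, 4.46 and 5.06 in PV epithelium and at 4.97, 5.36 and 7.01 in PV stroma. In WT it was at 5.19, 5.68 and 6.03 in epithelium and at 6.82, 7.20 and 7.66 in stroma. The stromal excess of Klf9 was present in 6 of 6 PV mice, at -1.40 ± 0.23 (2.63-fold, adjusted p = 8.45e-05), and in 7 of 7 WT mice, at -1.64 ± 0.17 (3.13-fold). Its PV minus WT interval ran from -0.35 to 0.84 and includes 0. The activating deiodinase Dio2 was at -2.57 ± 0.29 in PV and the lipogenic target Thrsp at 1.75 ± 0.38, beside -2.21 and 2.12 in WT.

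Among 18 cytokines and receptors, 4 were higher in PV epithelium and 8 in PV stroma (5 without PV1), against 3 and 7 in WT, and 8 were kept. The epithelial share is that of all genes (22.7%), and the kept share is near theirs (38.3%). Il33 (chr19:29925113-29960718), an alarmin stored in epithelial nuclei, was at 4.01, 5.40 and 6.99 log2 CPM in PV epithelium and at 3.46, 3.56 and 4.58 in PV stroma. In WT it was at 3.62, 4.32 and 5.12 in epithelium and at 3.48, 4.40 and 4.58 in stroma. The epithelial value was the higher in 6 of 6 PV mice, although in PV2 both values were a single count, and the PV compartments overlapped. The difference was 1.61 ± 0.27 in PV (3.04-fold, adjusted p = 9.57e-05) and 0.22 ± 0.24 in WT (adjusted p = 0.48). The interval between genotypes ran from 0.62 to 2.16, with an adjusted p of 0.579. The Il33 receptor Il1rl1 was at -0.73 ± 0.20 in PV and -0.94 ± 0.16 in WT, and its PV call was lost without PV1 (adjusted p = 0.0595). The membrane-bound chemokine Cx3cl1 was higher in PV epithelium by 2.32 ± 0.26 without overlap, beside 1.57 ± 0.22 in WT, and the stromal chemokine Cxcl12 was kept at -2.98 ± 0.28.

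Stromal chemokine values in PV rested in part on 1 mouse. Ccl2, which attracts monocytes, was at 2.68, 3.70 and 6.76 log2 CPM in PV epithelium and at 4.12, 4.62 and 10.17 in PV stroma, with PV1 highest in both. The difference was -2.16 ± 0.32 in PV and -0.66 ± 0.27 in WT (adjusted p = 0.0501), and without PV1 it was -1.40 in PV (adjusted p = 4.44e-04), while PV minus WT went from -1.51 to -0.73. Cxcl10 (chr5:92346638-92348889), an interferon-induced chemokine, was at 2.86, 3.18 and 5.79 in PV epithelium and at 3.46, 4.20 and 9.33 in PV stroma, also with PV1 highest. It was at -2.68 ± 0.35 in PV and -0.49 ± 0.29 in WT, and the interval between genotypes ran from -3.12 to -1.25. The inflammatory cytokine Il1b was at -1.42 ± 0.33 in PV and at -0.63 without PV1 (adjusted p = 0.031), and its PV minus WT difference went from -0.91 to -0.12.

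B and plasma cell genes were called higher in PV stroma for 6 of 7, against 1 of 7 in WT, with medians of -1.74 and -1.11. The stromal share of all genes was 26.7% (PV) and 26.8% (WT). The contrast of 6 and 1 depended on the setting. Dropping the mouse as a block gave 5 (PV) and 4 (WT), with medians of -1.73 and -2.21, so that the WT median was the larger. Upper-quartile scaling gave 6 and 3, DESeq2 6 and 1, and limma 5 and 1. Without PV1 the PV count was 4, and the WT median was -0.43 without WT1, -0.52 without WT8 and -1.67 without WT7. Igkc (chr6:70726435-70726754) was at 6.32, 8.13 and 10.07 log2 CPM in PV epithelium and at 8.18, 12.10 and 13.52 in PV stroma, higher in stroma in 6 of 6 mice. In WT stroma it ranged from 3.43 to 11.24 with a median of 6.85. The immunoglobulin A heavy chain gene Igha was at -3.44 ± 0.88 in PV and -1.13 ± 0.87 in WT, the J chain gene Jchain at -3.29 ± 0.69 and -1.32 ± 0.64, and the plasma cell chaperone Mzb1 at -1.18 ± 0.30 and -0.10 ± 0.27. Mzb1 lost its PV call without PV1 (adjusted p = 0.0595), and its PV minus WT difference went from -1.08 to -1.63 without PV4. The interval between genotypes ran from -5.02 to 0.07 for Igkc and from -3.90 to -0.04 for Jchain. The summed level of the list ran from 749.6 to 27200 CPM in PV stroma and from 161.6 to 5298 in WT stroma, so the ranges of the 2 genotypes overlapped.

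Genes of other immune and vascular cells were mostly stromal in both genotypes, where 26.7% of all genes were higher in PV stroma and 26.8% in WT stroma. Of T and NK cell genes, 8 of 10 were higher in PV stroma (6 without PV1) and 6 of 10 in WT, with medians of -1.07 and -0.70. Il2rb, an interleukin 2 receptor chain, was at -2.41 ± 0.20 in PV, the T cell receptor component Cd3g at -1.21 ± 0.20 and the granzyme Gzma at -1.19 ± 0.32, whose call was lost without PV1 (adjusted p = 0.0559) and whose PV minus WT difference went from -0.88 to -0.44 without WT1. Of macrophage genes 8 of 10 were stromal in both genotypes, among them the complement subunit C1qb (-2.68 ± 0.38 in PV) and the mannose receptor Mrc1 (-2.29 ± 0.25). All 10 endothelial genes were stromal in both, with medians of -2.16 and -1.66. Eng (endoglin) was at 4.03, 4.20 and 4.98 log2 CPM in PV epithelium and at 6.36, 6.93 and 7.45 in PV stroma, a difference of -2.85 ± 0.15 against -2.25 ± 0.12 in WT, and Emcn (endomucin) was at -2.58 ± 0.21 against -1.75 ± 0.17. Their intervals between genotypes were -0.99 to -0.21 and -1.39 to -0.26. All 9 smooth muscle genes were stromal in both, which the actin stain helped to select, with Synpo2 at -3.05 ± 0.21 and Smtn at -1.38 ± 0.15 in PV. Of 2 erythroid genes, the haemoglobin gene Hba-a1 was stromal in both genotypes (-1.90 ± 0.43 in PV) and Alas2, of haem synthesis, in neither (-0.46 ± 0.21). Summed levels in PV epithelium ran from 106.8 to 268.8 CPM for endothelium and from 117.4 to 506.3 for macrophages, beside 556.6 to 1046 and 273.2 to 1608 in PV stroma.

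Basement membrane genes were split between the compartments, 6 of 19 higher in PV epithelium and 10 in PV stroma, as in WT, with 15 kept. All genes together gave 22.7% higher in PV epithelium, 26.7% in PV stroma and 38.3% kept. The collagen chain Col4a1 was stromal at -3.08 ± 0.24 and -2.51 ± 0.20. The vascular laminin chain Lama4 was at -2.43 ± 0.17 in PV and -1.76 ± 0.14 in WT, and the linker Nid2 at -2.35 ± 0.26 and -1.38 ± 0.22, with intervals between genotypes of -1.13 to -0.21 and -1.70 to -0.26.

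Of 16 cell cycle genes, 5 were called higher in PV epithelium and 0 in stroma, against 1 and 0 in WT, with medians of 0.87 and 0.15. Among all genes, 22.7% were higher in PV epithelium and 26.7% in PV stroma. The PV count was 9 without PV1 and 1 without PV4, and the PV median 1.25 and 0.20. Without PV4 the medians of PV and WT were thus close, at 0.20 and 0.15. The replication clamp Pcna was at 6.54, 7.15 and 9.16 log2 CPM in PV epithelium and at 5.38, 6.47 and 7.04 in PV stroma, higher in epithelium in 6 of 6 mice with overlap of the groups, and with PV4 highest in both. Its difference was 0.96 ± 0.27 in PV (adjusted p = 0.00714) and 0.17 ± 0.23 in WT, and PV minus WT went from 0.79 to 0.48 without PV4. The helicase subunit Mcm3 was at 1.16 ± 0.39 in PV, or 0.63 without PV4 (adjusted p = 0.163). Ccnd1 (cyclin D1) was called in both, at 1.36 ± 0.41 in PV, or 0.96 without PV4 (adjusted p = 0.0678), and 1.51 ± 0.35 in WT.

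**Figure D4:**
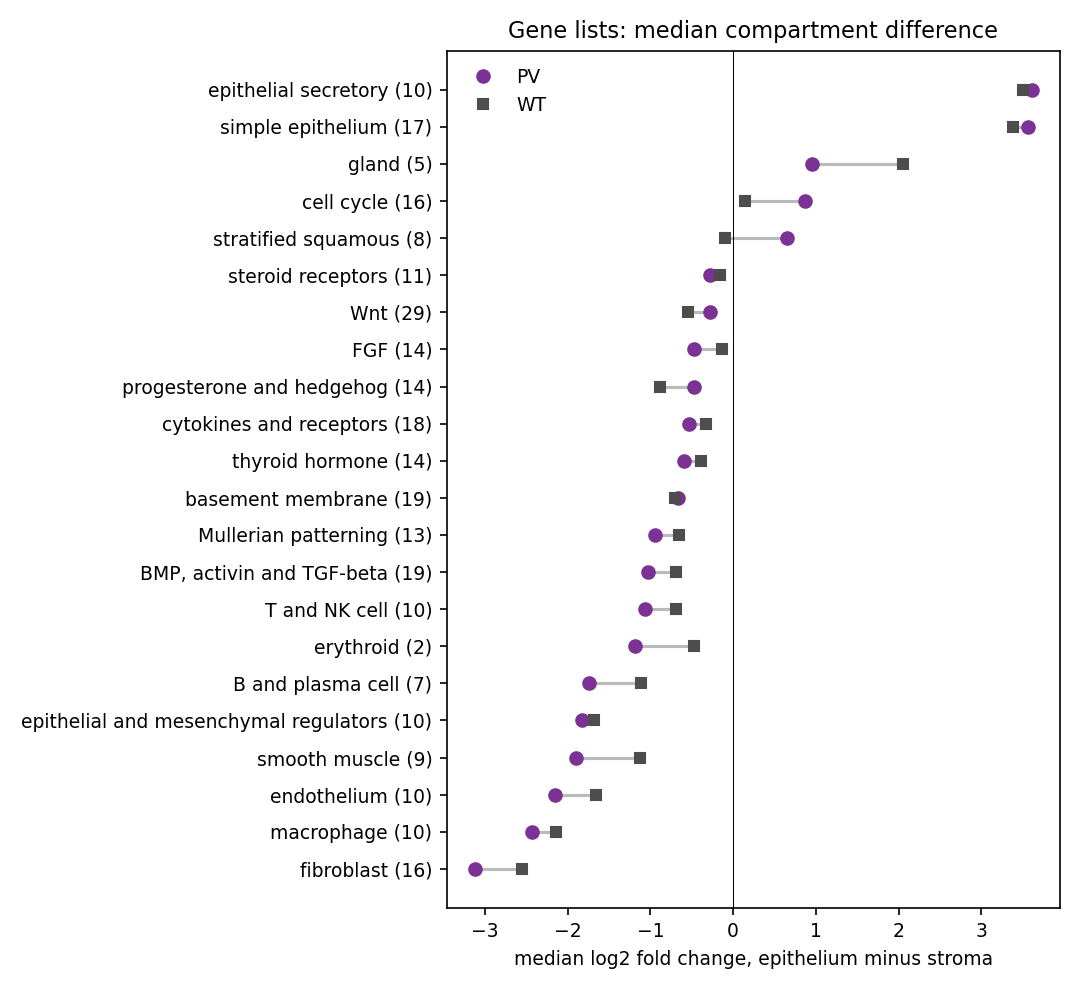
Median epithelium minus stroma log2 fold change (x axis) of the tested members of each gene list in PV (circles) and WT (squares), with the number tested in brackets. The simple epithelium list lies at 3.57 and 3.39 and the fibroblast list at -3.12 and -2.56, and the gland list at 0.95 and 2.05.

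Whether a compartment difference was lost or gained in the mutant was tested as the difference between the PV and the WT contrast. No gene passed: edgeR called 0 of 14881, with a lowest adjusted p of 0.579, where 1066 genes (7.16%) had an unadjusted p under 0.05, 489 of them positive and 577 negative. DESeq2 on the same sums called 1 gene, Ccn2, and limma called 0. The 1654 genes called in PV and not in WT, and the 1569 called in WT and not in PV, are therefore not shown to differ between genotypes, and 1508 of the former and 1432 of the latter had the same sign in both. Without PV1 these counts were 1099 and 2374. The interval of the difference lay within 1 on the log2 scale for 11812 genes (79.4%), including 4454 of the 5694 kept, and wholly beyond 1 for 2 genes, Ccn2 and Cxcl10. The single-mouse differences of PV and WT did not overlap for 24 genes (0.161%).

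Ccn2 (chr10:24595442-24598683), a matricellular growth factor induced by stretch and TGF-beta, was the 1 gene called in both genotypes with opposite sign. It was at 3.24, 4.25 and 5.07 log2 CPM in PV epithelium and at 4.17, 5.49 and 5.98 in PV stroma, and at 5.03, 5.34 and 7.93 in WT epithelium and 4.09, 4.66 and 5.30 in WT stroma. Stroma was the higher in 5 of 6 PV mice and epithelium in 7 of 7 WT mice. The difference was -0.89 ± 0.34 in PV (adjusted p = 0.0371) and 1.50 ± 0.28 in WT (adjusted p = 2.85e-04), and PV minus WT was -2.39 with an interval from -3.32 to -1.46. The PV call was lost without PV1, PV2, PV3, PV4 or PV5 (adjusted p from 0.0539 to 0.235), where the PV difference ran from -1.03 to -0.56. DESeq2 gave a PV minus WT difference of -2.32 (adjusted p = 0.0416).

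The other genes with the lowest p of that difference are given as values. Cavin1 (chr11:100956736-100970617), a coat protein of caveolae, was at 6.37, 7.11 and 8.36 log2 CPM in PV epithelium and at 6.53, 7.33 and 7.94 in PV stroma, and at 5.31, 6.01 and 6.66 in WT epithelium and 6.96, 7.61 and 8.21 in WT stroma. PV epithelium thus overlapped PV stroma, while WT epithelium lay below WT stroma in all mice. The stromal excess of Cavin1 was -1.62 ± 0.21 in WT and not called in PV (-0.23 ± 0.23, or 0.03 without PV6), with an interval between genotypes of 0.73 to 2.04. The phosphatase Cdc25a, which drives entry into S phase, was higher in epithelium in 6 of 6 PV mice, at 1.04 ± 0.15 against 0.14 ± 0.12 in WT, and the ribosome biogenesis protein Wdr43 in 6 of 6, at 0.95 ± 0.17 against -0.03 ± 0.14. In PV2, Wdr43 had 2 counts in both compartments, so its direction there comes from the totals. In Cdc25a and Wdr43 the single-mouse differences of PV and WT did not overlap, for Wdr43 with PV2 included, as also in Dscam, a cell adhesion molecule, at -1.12 ± 0.18 against -0.11 ± 0.15. The dehydrogenase family member Dhrs13 was at 1.15 ± 0.23 and -0.15 ± 0.19. On the stromal side the orphan receptor Gpr153 was kept at -2.35 ± 0.19 against -1.32 ± 0.16 and Pianp, a ligand of the PILR-alpha receptor, at -1.49 ± 0.15 against -0.68 ± 0.12, while the placental growth factor Pgf was at -1.15 ± 0.17 against -0.18 ± 0.15. Intervals between genotypes for these genes, in the same order from Cdc25a, were 0.49 to 1.31, 0.52 to 1.44, -1.50 to -0.53, 0.68 to 1.92, -1.54 to -0.52, -1.21 to -0.41 and -1.45 to -0.48. Ripor2 and Wfdc1 had a stromal difference called in WT and a PV p above 0.05. Ripor2 was at -0.85 ± 0.41 in PV against -1.63 ± 0.29, and Wfdc1, a secreted WAP-domain protein, was at -0.73 ± 0.38 against -1.52 ± 0.27. Their intervals of -0.28 to 1.84 and -0.18 to 1.78 include 0, and without WT3 the PV difference of Ripor2 was called (adjusted p = 0.0324).

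**Figure D5:**
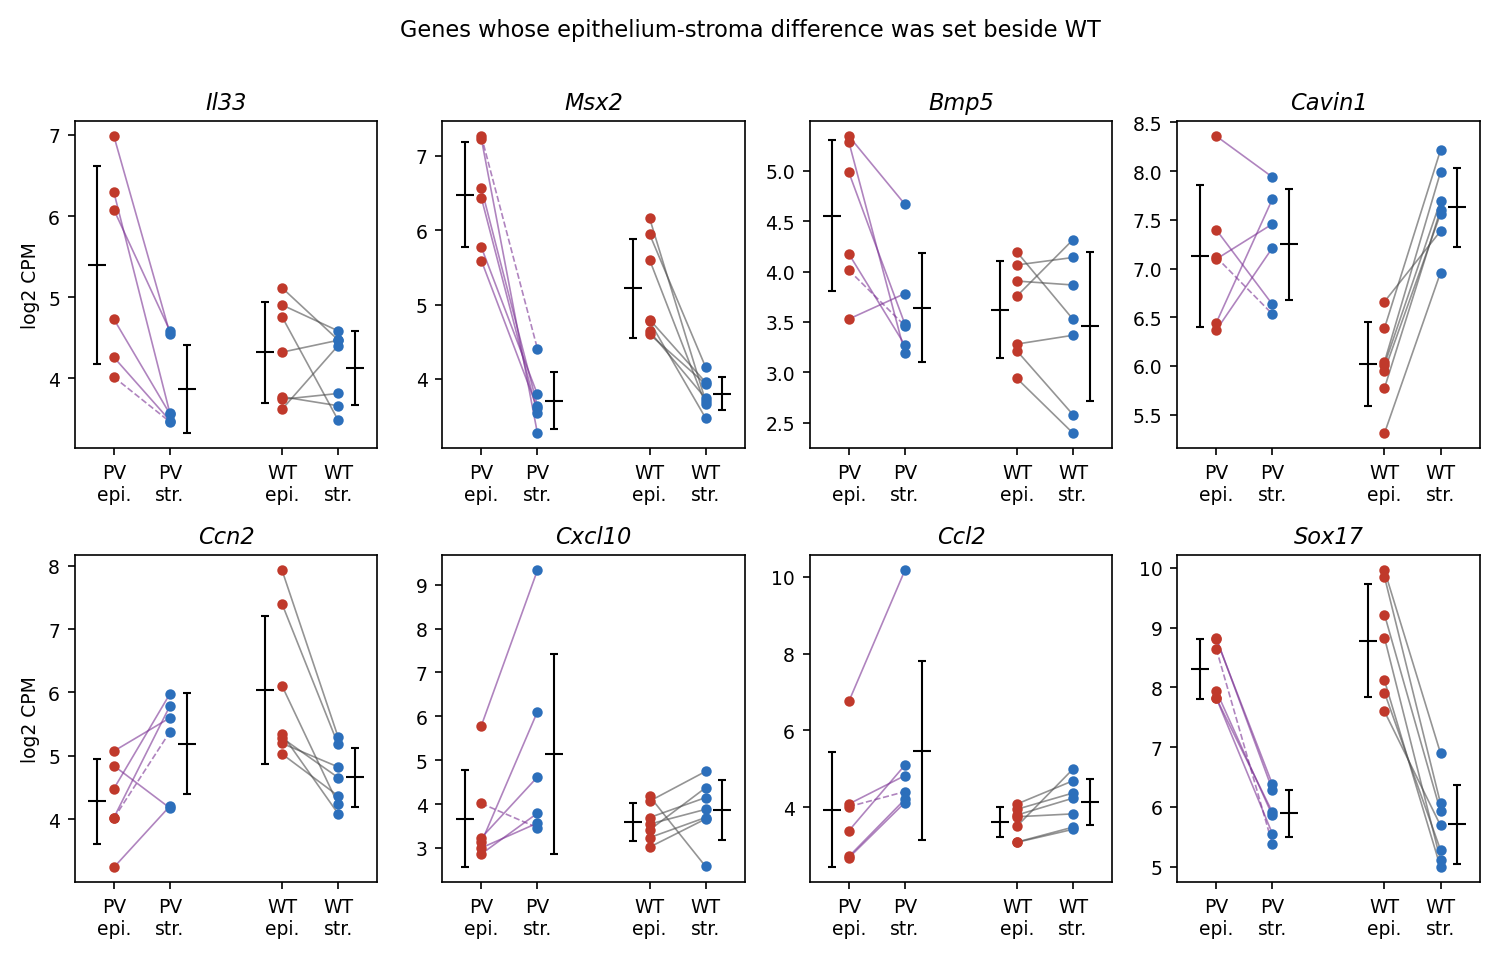
Log2 CPM (y axes, each with its own range) of 8 genes in epithelium (red) and stroma (blue) of 6 PV mice (purple lines, dashed for PV2) and 7 WT mice (grey lines), with the group mean and SD in black. The Ccn2 lines run upward to stroma in 5 of 6 PV mice and downward in 7 of 7 WT mice, Cavin1 runs upward in all WT mice and both ways in PV, and Il33 and Msx2 fall more steeply from epithelium to stroma in PV.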

How the data were processed

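Regions of mouse uterus were profiled by the authors with the GeoMx whole-transcriptome assay, and the deposited count table holds expected counts per target and region, in which 0 was replaced by 1. The deposited normalised table holds signal values, scaled by the authors to the third quartile of each region (Q3) after a filter on detected targets, and it was used for the region marker score, 1 alternative and the set of 14881 genes. The authors' quality control removed regions and targets before deposit. Probe positions and their build were not used here. No column of the tables belonged to a sample outside the labels (0 columns). The negative-probe row, 5.27e-04% of the counts, was dropped.

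Counts were summed per mouse and compartment, giving 26 sums with totals of 61691 to 13492532, and fitted with edgeR 4.0.16 (quasi-likelihood, TMM scaling, R 4.3.3) with the mouse as a block and a compartment term per genotype. The authors' own test ran over regions, and their methods name a linear mixed model with a likelihood ratio test. Mice with both compartments on the first plate entered, so the WT mouse WT6 was left out. Adjusted p-values are Benjamini-Hochberg over all genes, and log2 CPM used a prior count of 2. Epithelium and stroma of a mouse deviated together (correlation 0.152 to 0.521 in 13 of 13 mice), so the block was kept. DESeq2 1.42.0, limma 3.58.1, other scalings, filters, sample sets and the deposited probe counts with true zeros were alternatives. The fit was tested on simulated data. Named genes were the 8 largest PV differences per direction with 6 of 6 mice agreeing in sign, the 6 lowest p of PV minus WT per sign, the 3 largest differences called in 1 genotype with p above 0.05 in the other per direction, and members of the gene lists. Some named members are not reported here. Members and lists were chosen with earlier results of these data known. The labels name 14 mice and the series' design text 13. Replicates are separate mice by the labels, and intervals are 95% from the fit.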

Additional observations from a re-analysis of the deposited data

Results flagged for a closer look

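Among 226 groups of single-mouse compartment differences (epithelium minus stroma, log2 CPM), 18 (7.97%) had 1 mouse far from the others, where chance gives about 1 in 20. In 8 of them it was PV2, the mouse of lowest depth: Ltf 0.576 (the others 3.781 to 5.353), Muc4 0.897 (3.406 to 3.8), Sfn -0.393 (1.589 to 2.359), Sfrp4 1.515 (-3.623 to -1.932), Twist1 -0.393 (-2.411 to -1.699), Nr3c1 -2.56 (-0.946 to -0.412), Eng -1.387 (-3.166 to -2.509) and Mrc1 0.552 (-2.792 to -1.715).

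In WT the mouse apart was WT1 for Ltf at -1.601 (the others 3.097 to 5.91), Spink1 at 3.121 (-0.464 to 0.414) and Hoxa10 at -1.845. It was WT2 for Cxcl10 at 1.601 (-0.961 to -0.336), Pianp at -1.155 and Fgf7 at 0.407 (-1.228 to -0.638), and WT3 for Zeb2 at -3.385 and Ccl2 at -1.488. For Cavin1 it was WT7 at -0.725 (-1.949 to -1.609), and for Egfr it was WT8 at -2.285.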

How the results depend on the processing

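On first-plate sums, the PV count of 7349 genes ran from 5506 to 7864 over the scalings, filters, floors, tests, block and age restriction tried. Requiring a log2 difference beyond 1 left 2846 genes in PV, 2424 in WT, 2102 in both, 744 in PV and not WT and 322 in WT and not PV. DESeq2 called 1 gene for PV minus WT, which was Ccn2. Without the replicate block the counts were 5506 in PV, 5428 in WT, 4072 in both and 0 for PV minus WT. The fit without the Poisson bound on p, chosen after seeing the data, gave 7368 in PV. Leaving out 1 mouse at a time gave 5925 to 7421 genes in PV, 6246 to 7327 in WT, 4824 to 5690 in both, 1099 to 2386 in PV and not WT, 1156 to 2374 in WT and not PV, 0 to 0 for PV minus WT, and 91 to 99 of the named genes in PV (98 of 113 with all mice). With both plates 0 genes were called in PV by edgeR (1951 at an unadjusted p under 0.05), 0 in both, 0 in PV and not WT, 5743 in WT and not PV, and 0 named genes in PV. There the PV difference turned sign for Lrp2 (-0.533), Ripor2 (0.090), Wfdc1 (0.067), Ihh (-0.038), Ptch1 (-0.097), Fst (0.111), Pcna (-0.029), Mcm3 (-0.030) and Alas2 (0.013). PV minus WT turned sign there for Krt8 (-1.736), Epcam (-1.773), Dcn (0.621), Col1a1 (0.265), Cd34 (0.801), Gpr153 (0.079), Fndc1 (-0.312), Sparc (0.597), Twist1 (0.392), Wnt7a (-0.529), Wnt16 (0.383), Frzb (0.009), Dkk3 (0.123), Fgf10 (0.363), Thra (0.132), Lama4 (0.360), Nid2 (0.064), Il33 (-0.083), Cx3cl1 (-0.178), Pcna (-0.062), Synpo2 (0.570), Smtn (0.120), Eng (0.472) and Emcn (0.435). Elsewhere PV minus WT turned for Klf9 at ages 4 to 6.3 (-0.073) and Krt8 without PV5 (-0.066; -0.066 to 0.372 with each mouse left out), and the PV difference for Fst without PV4 (0.080; -0.551 to 0.080) and Cavin1 without PV6 (0.032; -0.432 to 0.032). The cause was not tested. Depth limits PV2, in which 1 count also stands for none.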
